A study of Homo sapiens with 60 samples.

Results

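The comparison was between the RAD21 peak list of wild-type (WT) PC9 cells grown under osimertinib and that of untreated WT PC9 cells. Peaks on chromosomes 1 to 22 with a global IDR of 0.05 or less were taken from each list, which gave 16340 peaks in osimertinib-treated cells and 3635 in untreated cells. IDR, the irreproducible discovery rate, measures how well the rank of a peak holds between replicates. By the same rule the 24 peak lists of the whole series held 149865 peaks. Every deposited peak on these chromosomes, whatever its IDR, served as a second set, with 37973 peaks in treated and 15214 in untreated cells.

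PC9 is a human lung adenocarcinoma cell line whose growth depends on a mutant EGF receptor, and osimertinib inhibits that receptor. The treated cells had been exposed to a dose that was raised step by step from 100 nM over 6 to 8 weeks. The untreated cells had the same WT genotype and no drug. Each list joined 2 samples, and the study as a whole also profiled cells without METTL7A (KO) and such cells made to overexpress it (Rescue), with antibodies to RAD21, PDS5A, H3K27Ac, H2A and IgG by CUT&RUN. In that assay an antibody tethers a nuclease to chromatin, and the fragments it releases are sequenced. The labels do not say that the 2 samples of a list came from separate cultures, and peak lists hold no expression values, so the identity of the cells could not be checked against marker genes.

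RAD21 is the kleisin subunit that closes the cohesin ring. Cohesin extrudes loops of chromatin and is held up at sites bound by CTCF, which is why most RAD21 peaks mark loop anchors and domain borders; a smaller share lies at active promoters and enhancers, where cohesin is loaded or passes. PDS5A binds the ring and, with WAPL, helps to release it from DNA, and H3K27Ac marks active promoters and enhancers.

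The replicates of both lists differed in strength. The authors' −log10 p, used here only within a list, had a median of 36.3 in replicate 1 and 19.7 in replicate 2 of treated cells, against 48.6 and 12.8 in untreated cells. Replicate 1 gave the higher value at 95.3% of treated peaks and at 3634 of 3635 untreated peaks. Across peaks, the 2 values had a Spearman rho of 0.742 over 16340 treated peaks and 0.486 over 3635 untreated peaks, and peaks of a list share their libraries. The IDR that selected these peaks rests on the ranks of the same 2 replicates. The files carry no read totals, so depth is unknown. Its part in the results below was not tested.

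Treated cells had 4.50 times as many RAD21 peaks as untreated cells. Over every deposited peak the ratio was 2.50, and 43.0% of deposited treated peaks met the IDR limit, against 23.9% of deposited untreated peaks. The listed peaks covered 19.1 Mb in treated cells and 4.57 Mb in untreated cells, a ratio of 4.19. The other lists of WT cells were longer under treatment too, with 12323 PDS5A peaks in treated and 1731 in untreated cells, and 10077 and 5045 H3K27Ac peaks. The IgG control had 310 peaks in treated and 10 in untreated cells, or 7509 and 1042 over every deposited peak. The part of this background in the RAD21 counts was not tested. A deposited IgG peak of treated cells lay under 44.8% of untreated and 28.1% of treated RAD21 peaks. With peaks on deposited IgG peaks left out, which took a larger share of the untreated list, the RAD21 ratio was 5.98. With 1 list per condition, no test of this difference was possible; intervals given for shares are 95% Wilson intervals, which cover counting error only, and peaks are not replicates. Peaks on either side of the IDR limit were of similar strength. The 100 treated peaks just inside it had a median lower replicate −log10 p of 10.4, and the 100 just outside had 10.7. The values in untreated cells were 8.81 just inside and 8.77 just outside.

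Most untreated sites were still present in treated cells, and most treated sites were gained. With 16340 treated and 3635 untreated peaks, and no peak meeting more than 2 of the other list, most treated peaks had to be gained. Of treated peaks, 80.5% (13149; 79.9 to 81.1%) met no listed untreated peak, and 3191 were kept. Of untreated peaks, 12.1% (439; 11.1 to 13.2%) met no listed treated peak and so were lost, and 87.9% were kept. Over every deposited peak in both lists, 63.5% of treated peaks were gained and 7.63% of untreated peaks were lost. Cut to its 3635 highest peaks, the length of the untreated list, the treated list had 49.6% gained peaks and held 50.6% of untreated peaks.

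The gained peaks fell into 2 sets of similar size. One set, 6337 peaks or 38.8% of the treated list, lay on an untreated peak that was deposited with an IDR above the limit. These are called sub-threshold gained peaks here. The other, 6812 peaks or 41.7%, met no deposited untreated peak of any IDR and are called new peaks. Of gained peaks, 51.8% were new (51.0 to 52.7%). The lost peaks divided otherwise: 412 of 439 lay on a treated peak deposited with an IDR above the limit, and 27 met none. Those 27 were 0.743% of the untreated list. Thus nearly every untreated RAD21 site had some deposited peak in treated cells, while 6812 treated peaks had none in untreated cells. The deposited lists differed in length, with 37973 treated and 15214 untreated peaks, the latter fewer than the 16340 listed treated peaks. The part of list length in this contrast was not tested.

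Peaks were ranked within a list by the lower of their 2 replicate −log10 p values. Kept peaks headed the treated list. In the highest decile 64.9% of treated peaks were kept and 16.4% were new, and in the lowest decile 2.75% were kept and 55.9% were new. Sub-threshold gained peaks made up 18.7% of the highest decile, 32.6% of the next and 39.96% to 45.8% of the 8 deciles below. Of the 100 highest treated peaks 6 were gained, 3 of them new. Of the 1000 highest, 28.3% were gained (25.6 to 31.2%) and 14.4% were new. In the untreated list, rank made little difference to whether a peak was kept: the share ran between 83.7% and 91.2% over the deciles, without a steady fall from the highest to the lowest.

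**Figure D1:**
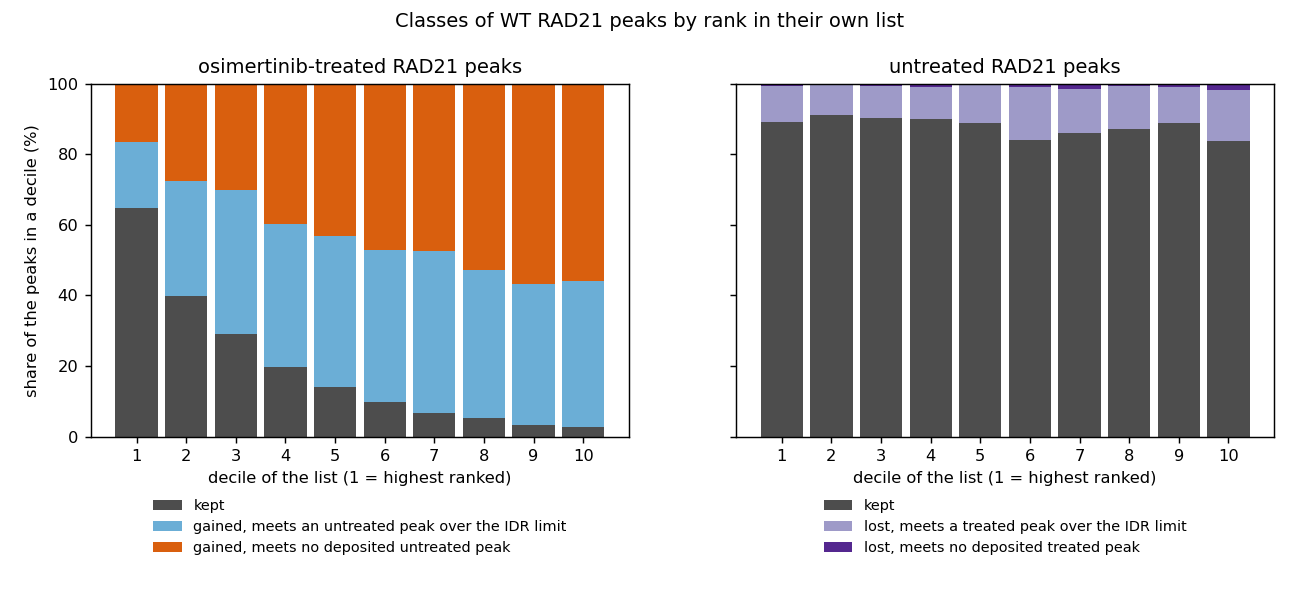
Stacked bars give the share of peaks (%) in each class for each decile of the list, ranked from 1 (highest) to 10 by the lower replicate −log10 p, for osimertinib-treated peaks on the left and untreated peaks on the right. In the treated list the kept share was 64.9% in the first decile and 2.75% in the last, while in the untreated list it stayed between 83.7% and 91.2%.

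The strongest sites illustrate both ends. The highest treated peak lay on chromosome 3 from 97757900 to 97759060 (GRCh37, as all positions here), was kept, and had −log10 p values of 596 and 385. It carried a PDS5A peak and no H3K27Ac peak in treated cells. The next were kept peaks on chromosome 6 from 107996138 to 107997146, and on chromosome 2 from 241171663 to 241172944, from 222435012 to 222439851, and on chromosome 1 from 178510861 to 178512929. All 5 lay on a listed PDS5A peak of treated cells, 3 of them also on a listed H3K27Ac peak, and 4 on a deposited IgG peak of WT cells.

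Some new peaks ranked nearly as high. The highest new peak off every deposited WT IgG peak lay on chromosome 5 from 169407092 to 169408111 and ranked 19 in the treated list, with −log10 p values of 317 and 212. It was followed by chromosome 19 from 40283552 to 40284113 (rank 51), chromosome 20 from 23779990 to 23780756 (rank 54), chromosome 7 from 97650971 to 97652067 (rank 101) and chromosome 10 from 26624106 to 26624782 (rank 125). These peaks were 562 to 1097 bp wide and none lay on a listed H3K27Ac peak of treated cells. A listed PDS5A peak of treated cells covered 4 of them, all but the one on chromosome 7. Untreated WT cells, which had no deposited RAD21 peak at these 5 sites, had a deposited PDS5A peak at each.

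Only 27 untreated peaks were without any deposited treated counterpart, and a pair of them were strong. The peak on chromosome 20 from 39317397 to 39319405 ranked 9 in the untreated list, with −log10 p values of 212 and 82.9, and that on chromosome 3 from 10814221 to 10814893 ranked 46, with 247 and 53.2. Neither site had a deposited PDS5A, H3K27Ac or IgG peak in treated WT cells; in untreated WT cells the one on chromosome 20 lay on a listed PDS5A peak. The other 25 stood lower, led by chromosome 7 from 3522018 to 3522498 at rank 825, chromosome 9 from 87873476 to 87874152 at rank 943 and chromosome 13 from 77459374 to 77460903 at rank 1233. Among lost peaks of any kind the highest was 5077 bp wide, on chromosome 8 from 128747099 to 128752175 at rank 8, and it lay on a treated peak deposited above the IDR limit and on a WT IgG peak. Lost peaks on chromosome 1 from 45768876 to 45770396 (rank 28) and chromosome 20 from 48226964 to 48228295 (rank 44) likewise met a deposited treated peak and an IgG peak.

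New peaks were narrow. Their median width was 776.5 bp (quartiles 598 and 1048), against 1195 bp for sub-threshold gained peaks and 1334 bp for kept peaks of the same list. The order was the same in each replicate's own boundaries, with medians of 715, 1138 and 1272 bp in replicate 1 and 590, 913 and 1071 bp in replicate 2 for new, sub-threshold and kept peaks. It also held within the highest rank quartile of the treated list, where the medians were 827, 1228 and 1334 bp. A quartile narrows the range of ranks but does not make them equal between classes. Off deposited WT IgG peaks the medians were 743 bp for new, 1005 bp for sub-threshold and 1075 bp for kept peaks, and the difference of new minus kept peaks was −331.5 bp when classes were formed without peaks on IgG peaks. A wide peak meets another by 1 bp more readily than a narrow one. With classes set instead by 500 bp around each centre, an alternative chosen after seeing the data, the median width of new minus kept peaks was −518 bp, against −557.5 bp with the joined boundaries. Lost peaks, by contrast, were wide, with a median of 1315 bp against 1093.5 bp for kept untreated peaks; those lost to a sub-threshold treated peak had a median of 1342 bp and the 27 others 953 bp.

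The widest gained peaks were all sub-threshold ones. They lay on chromosome 14 from 69255203 to 69263432 (8230 bp), chromosome 1 from 234742834 to 234750023 (7190 bp), chromosome 14 from 62026037 to 62032087 (6051 bp), chromosome 10 from 8091394 to 8097398 (6005 bp) and chromosome 3 from 187455213 to 187460994 (5782 bp). Each met a deposited untreated H3K27Ac peak, and 4 of the 5 met a deposited WT IgG peak.

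**Figure D2:**
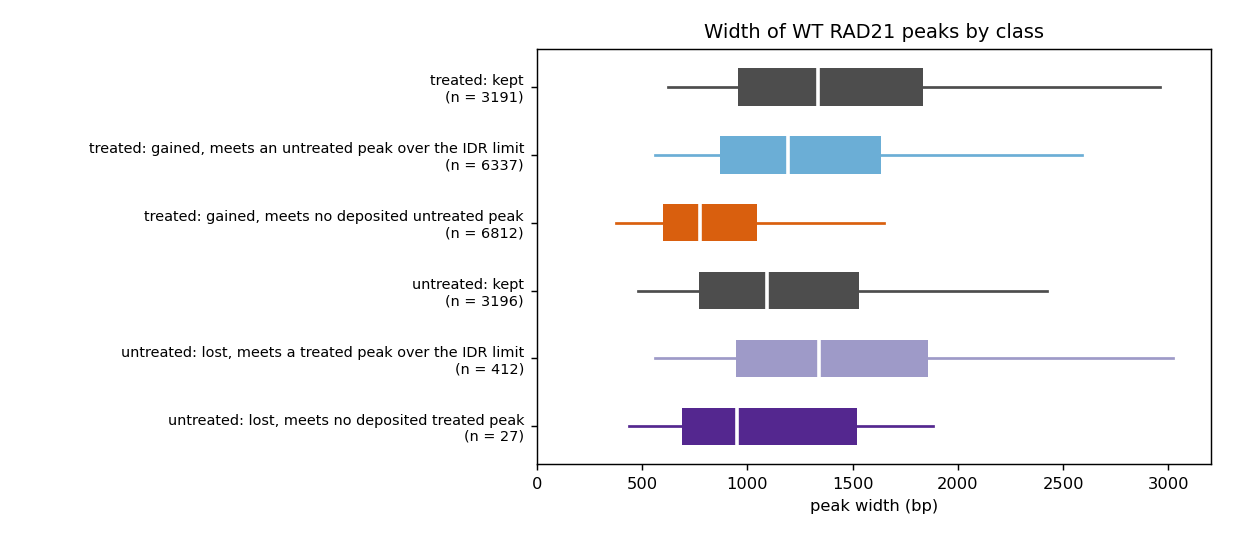
Peak width (bp) by class, with treated classes above untreated ones; the line runs from the 5th to the 95th percentile, the box covers the quartiles and the white bar is the median. New peaks, with a median of 776.5 bp, were the narrowest treated class, and kept treated peaks (1334 bp) were wider than kept untreated peaks (1093.5 bp).

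Kept sites had summits close together in the 2 conditions and were broader in treated cells. Only overlapping peaks count as kept, so closeness is partly set by the definition. A single treated peak met a single untreated peak at 3168 sites. Between replicate 1 of treated cells and replicate 1 of untreated cells, summits lay a median of 32 bp apart. That was no farther than the 36 bp between the 2 treated replicates or the 51 bp between the 2 untreated replicates; the other 3 pairs of libraries gave 38 to 55 bp. Median widths at these sites were 1267 and 1068 bp in the treated replicates, and 1051 and 710 bp in the untreated replicates, so both treated medians stood above both untreated ones, replicate 2 of treated cells only just. By joined boundaries 76.9% of the sites were wider in treated cells, by a median of 193 bp over all sites. The order of strength was kept in part: across the 3168 sites the replicate 1 values of treated and untreated cells had a Spearman rho of 0.583 and the replicate 2 values 0.378, against 0.796 between treated replicates and 0.491 between untreated replicates. Sites of a list share libraries and depth. They were also selected by an IDR that rests on the ranks of the 2 replicates of that list. The values between replicates are therefore not on equal terms with those between conditions.

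RAD21 sites of the full lists lay closer together in treated cells. The median distance between the centres of neighbouring peaks was 60.7 kb in treated cells and 249.8 kb in untreated cells. Gaps under 20 kb made up 23.8% of treated gaps and 7.50% of untreated gaps. The direction turned round at equal length: cut to the 3635 highest peaks, the treated list had a median gap of 259.5 kb, against 249.8 kb in untreated cells.

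Most gained peaks of the listed set lay more than 20 kb from a kept one, yet gained peaks were densest where kept peaks stood close together. Their median distance to the nearest kept peak was 178.8 kb, and 9.55% (9.06 to 10.1%) lay within 20 kb of one. With every deposited peak in both lists 33.2% did, and at a global IDR of 0.01 or less 5.09%. Kept peaks lay a median of 142.9 kb from the nearest other kept peak, with 12.4% within 20 kb. New peaks were farther from kept peaks than sub-threshold ones were, with medians of 207.8 and 153.3 kb. Gained peaks lay nearer to one another, a median of 35.1 kb apart with 34.6% within 20 kb. With 13149 gained and 3191 kept peaks, these distances are not on equal terms. Of the 3169 intervals between neighbouring kept peaks on a chromosome, 76.0% held a gained peak. The density fell with the length of the interval. Intervals under 20 kb held 13.7 gained peaks per Mb, from only 27 peaks in 1.97 Mb. Those of 20 to 100 kb held 12.8 per Mb, from 407 peaks, and those over 1000 kb held 3.16 per Mb over 2015.7 Mb. Over all intervals the density was 4.77 per Mb. Stretches where no peak can be called were not taken out of these lengths. The share within 20 kb under an even spread was not computed.

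**Figure D3:**
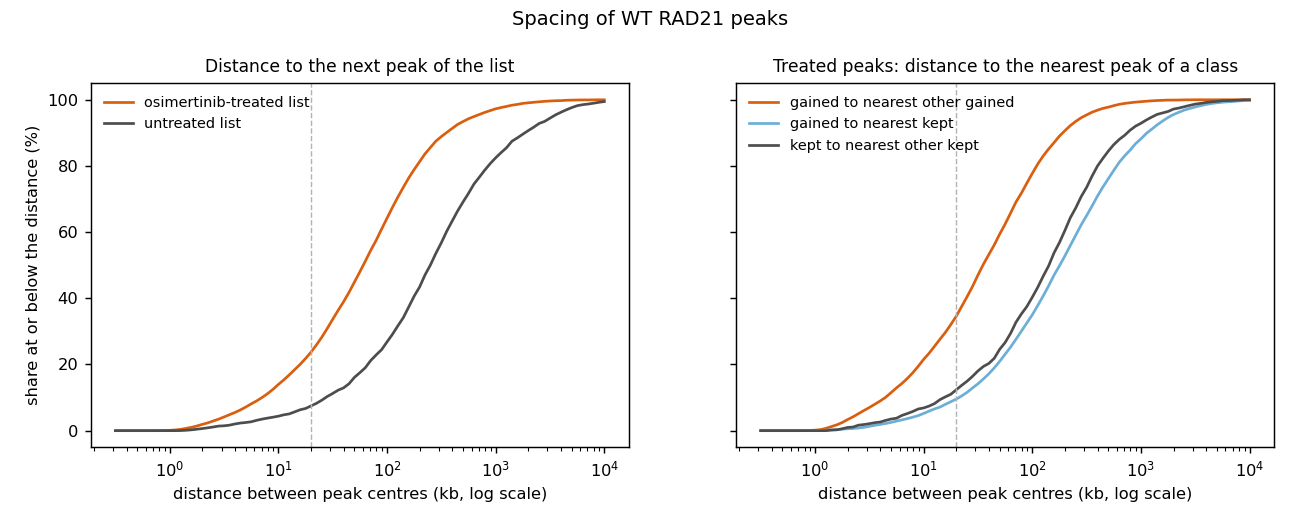
Cumulative share (%) of distances between peak centres in kb on a log axis: on the left between neighbouring peaks of a list, treated in orange and untreated in grey, and on the right from treated peaks to the nearest peak of a class. The dashed line marks 20 kb, which 23.8% of treated gaps and 7.50% of untreated gaps fell under; distances from gained to kept peaks (median 178.8 kb) ran longer than those from kept to kept (142.9 kb).

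Most gained peaks stood alone. When gained peaks with less than 20 kb between neighbouring centres were joined into runs, 65.3% were single and 21.7% were in pairs. The longest runs had 7 gained peaks. One ran from 39678735 to 39716452 on chromosome 22, with 2 new peaks, and another from 6907907 to 6964162 on chromosome 17, also with 2. The third, from 235092810 to 235149090 on chromosome 1, had 3 new peaks. None of these runs held a kept peak or a listed untreated peak, yet they held 8, 6 and 5 deposited untreated peaks, and 6, 5 and 2 deposited IgG peaks of treated cells.

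By chromosome, every autosome had more peaks in treated cells, but not by the same factor. The ratio of treated to untreated peaks was lowest on chromosome 20 (591 peaks against 191, ratio 3.09), followed by chromosome 14 (483 against 149, 3.24) and chromosome 8 (524 against 142, 3.69). It was highest on chromosome 21 (102 against 8, 12.8) and chromosome 18 (185 against 27, 6.85), both with few untreated peaks. Chromosome 20 was also lowest over every deposited peak, at 1.86, while the highest there was chromosome 3 at 3.23. New peaks made up 28.9% of treated peaks on chromosome 20, against 41.7% over all chromosomes.

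In windows of 1 Mb, 2281 windows held a treated peak and 1422 an untreated peak; 870 held treated peaks alone and 11 untreated peaks alone. Of the 1422, the treated count was higher in 1331, equal in 70 and lower in 21. The share of the list grew most on chromosome 6 from 30 to 31 Mb (27 treated peaks against 1 untreated), chromosome 17 from 73 to 74 Mb (30 against 2) and from 74 to 75 Mb (24 against 1), and in a pair of windows with 20 treated peaks and 0 untreated ones, on chromosome 1 from 27 to 28 Mb and chromosome 9 from 124 to 125 Mb. These windows were not empty of deposited untreated peaks, with 13 to 29 each. Over every deposited peak the direction turned round in the window on chromosome 6 and in the window from 73 to 74 Mb on chromosome 17, to −0.0379 and −0.0260 percentage points of the list. They held 17 and 23 deposited IgG peaks in treated cells, against 0 and 2 in untreated cells. Among windows that did not turn round, the others named here held 3 to 14 in treated cells. Those named below for a fall held 2 to 24.

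The windows whose share fell most were ones with many untreated peaks, which the measure itself favours, since 1 peak is a larger share of the shorter list. Chromosome 19 had 21 treated peaks against 16 untreated from 58 to 59 Mb, and 18 against 12 from 56 to 57 Mb. Chromosome 20 had 27 against 17 from 48 to 49 Mb, chromosome 14 had 15 against 11 from 103 to 104 Mb, and chromosome 1 had 19 against 11 from 116 to 117 Mb. In all 5 windows the count was higher in treated cells, so the fall was in the share of the list and not in the number of sites.

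The classes differed in what else was bound there. A listed PDS5A peak of treated cells covered 46.7% of new peaks (45.6 to 47.9%), 60.7% of sub-threshold gained peaks (59.5 to 61.9%) and 80.4% of kept peaks (79.0 to 81.8%). For H3K27Ac of treated cells the shares were 17.6%, 37.3% and 40.6%. These shares depend on the IDR limit of the marks. Over every deposited peak of treated cells, PDS5A covered 91.3% of new, 97.0% of sub-threshold and 99.4% of kept peaks, and H3K27Ac 43.8%, 74.2% and 72.5%. A deposited IgG peak of treated cells lay under 9.79% of new, 39.2% of sub-threshold and 44.9% of kept peaks. Off WT IgG peaks, listed PDS5A covered 46.0% of new, 57.9% of sub-threshold and 79.8% of kept peaks. New peaks were also the narrowest class, and the part of width in these overlaps was not tested. Listed H3K27Ac off IgG peaks covered 14.1% of new, 22.7% of sub-threshold and 21.7% of kept peaks.

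Taken by pairs of marks within the IDR limit, listed PDS5A without listed H3K27Ac was the commonest setting of kept peaks (48.1%), and both marks were found at 32.3%. New peaks most often had neither listed mark (43.2%) or listed PDS5A alone (39.2%), and 7.53% had both; as above, most of those with neither lay on a deposited PDS5A peak.

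Listed PDS5A and listed H3K27Ac varied differently with rank. In the highest rank quartile of the treated list, PDS5A covered 78.3% of new, 82.4% of sub-threshold and 86.9% of kept peaks, and in the lowest rank quartile 30.2%, 40.3% and 48.4%. The overlap with PDS5A thus fell with rank in every class, and the classes stood closer at the top of the list than over the whole of it. Over every deposited peak the PDS5A fall was smaller. New peaks went from 98.3% to 85.3%, sub-threshold ones from 99.3% to 93.7% and kept ones from 99.8% to 96.1%. H3K27Ac showed no such fall. Its listed shares in the highest rank quartile were 12.2% of new, 35.8% of sub-threshold and 38.3% of kept peaks. In the lowest they were 19.03%, 34.8% and 62 of 155 peaks. Deposited H3K27Ac covered 31.9% of new, 66.6% of sub-threshold and 69.5% of kept peaks in the highest rank quartile. In the lowest it covered 49.8%, 78.5% and 75.5%. New peaks of the highest rank quartile thus lay mostly on listed PDS5A peaks and seldom on listed H3K27Ac peaks.

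**Figure D4:**
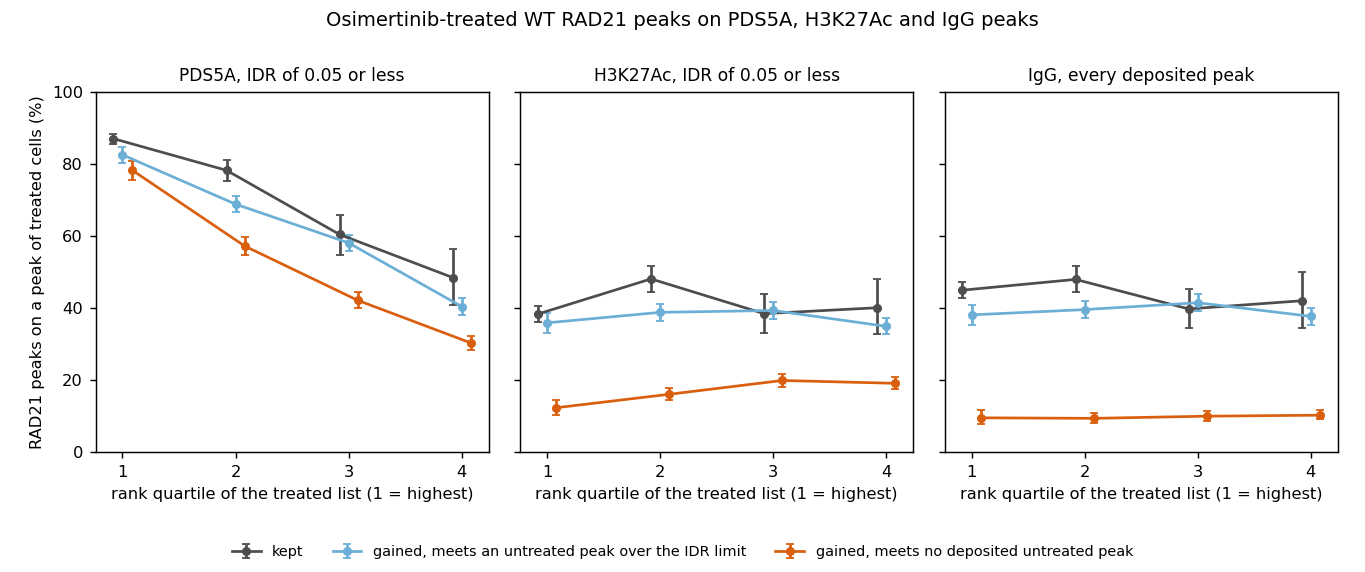
Share (%) of osimertinib-treated RAD21 peaks that lay on a PDS5A, H3K27Ac or IgG peak of treated WT cells, by class and by rank quartile of the treated list (1 = highest rank); bars are 95% Wilson intervals. Listed PDS5A shares fell with rank in all 3 classes. They lay between 78.3% and 86.9% in the first quartile and between 30.2% and 48.4% in the last. New peaks stayed at 12.2% to 19.8% for listed H3K27Ac and 9.31% to 10.2% for deposited IgG.

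The sites were also read in untreated WT cells. Over every deposited peak, an untreated PDS5A peak lay on 27.6% of new peaks, 67.7% of sub-threshold gained peaks and 93.0% of kept peaks, so 1882 new RAD21 peaks were sites where untreated cells had a deposited PDS5A peak and no deposited RAD21 peak. For deposited untreated H3K27Ac the shares were 21.4%, 61.9% and 63.6%. Deposited H3K27Ac peaks were present in treated cells alone at 23.2% of new peaks, in both conditions at 20.6% and in neither at 55.4%. At sub-threshold gained peaks they were present in both conditions at 60.6% and in treated cells alone at 13.5%. The lost peaks lay on listed untreated PDS5A peaks at 23.5% and on listed untreated H3K27Ac peaks at 36.7%, against 30.6% and 29.0% of kept untreated peaks.

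The 4 RAD21 lists of KO and Rescue cells, with and without osimertinib, came from libraries that had no part in defining the classes; they differed in length, from 4293 to 10864 peaks. Of kept peaks 54.3% were listed in all 4, and of sub-threshold gained peaks 8.22%. Of new peaks 1.81% (123 peaks) were listed in all 4 and 67.3% in none. Over every deposited peak, 26.9% of new peaks were in none of the 4 lists and 19.5% in all 4. Untreated KO or untreated Rescue cells held a listed peak at 21.4% of new peaks and a deposited one at 61.4%. For deposited peaks the same share was 99.7% of kept and 95.5% of sub-threshold gained peaks, and for listed peaks 95.1% and 51.6%. Most sites counted as new in treated WT cells thus had a deposited RAD21 peak in untreated cells of another genotype. They had one less often than the other classes did.

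Peaks of higher rank were listed in all 4 KO and Rescue lists at a larger share in every class. In the highest rank quartile of the treated list 8.81% of new peaks were listed in all 4 and 37.4% in none. In the lowest rank quartile the shares were 0.179% and 83.7%. Kept peaks were listed in all 4 at 63.6% in the highest and 29.0% in the lowest rank quartile, and sub-threshold gained peaks at 21.1% and 2.25%. Of the 5 strong new peaks named above, 4 were listed in all 4, and the one on chromosome 19 in 3. Of the 27 untreated peaks with no deposited treated counterpart, 6 were listed in all 4 other lists, 21 were deposited in all 4, and all 27 had a deposited peak in untreated Rescue cells. Among the 5 highest of them, those at ranks 9, 46 and 943 were listed in all 4 and those at ranks 825 and 1233 in 3.

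**Figure D5:**
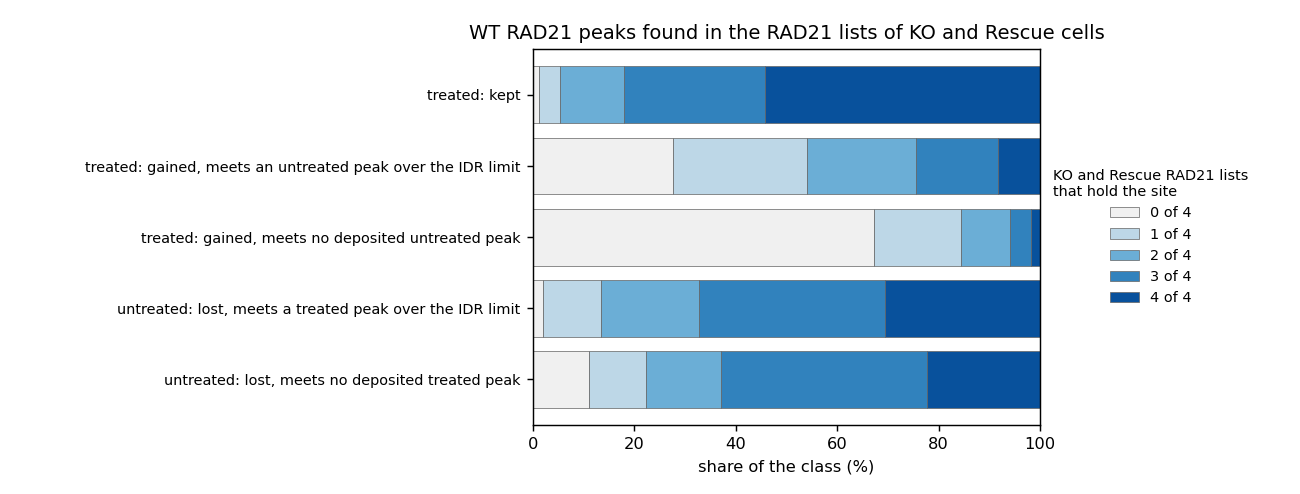
Share (%) of each class of WT RAD21 peaks by the number of the 4 KO and Rescue RAD21 lists (IDR of 0.05 or less) that hold the site, from 0 (pale) to 4 (dark), with treated classes above untreated ones. New peaks were in none of the lists at 67.3%, and kept peaks in all 4 at 54.3%.

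The same classes were formed for KO and Rescue cells. Treated KO cells had 4293 RAD21 peaks against 5283 in untreated KO cells, and 30.4% of treated peaks were gained, with 3.49% new. Treated Rescue cells had 10864 peaks against 8993 in untreated Rescue cells, and 36.4% of treated peaks were gained, with 5.24% new. In WT cells 80.5% of treated peaks were gained and 41.7% were new. Among the 1000 highest treated peaks 28.3% were gained in WT, 8.30% in KO and 5.90% in Rescue cells. New peaks were narrower than kept ones in all 3 genotypes, with medians of 573.5 against 1123 bp in KO cells and 542 against 1102 bp in Rescue cells. The gained and new shares depend on the length of the untreated list, which was shortest in WT cells. Untreated WT cells had 3635 listed and 15214 deposited peaks. Deposited peaks numbered 18589 in untreated KO and 24117 in untreated Rescue cells. The part of this length in the shares was not tested. With 1 list per condition the difference between genotypes was not tested.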

How the data were processed

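The authors deposited 1 CUT&RUN peak list per antibody, genotype and treatment, each joining 2 replicates. The submitters' processing notes name Bowtie2 2.4.2, MACS2 2.2.7.1, SAMtools 1.16, deepTools 3.5.1, bedtools 2.30, FastQC and Trimmomatic, and the build GRCh37. How MACS2 was set, which control it used and which IDR version was run are not given in the sources used here. The deposited values are −log10 values, 1 for the p of a peak in each replicate (3 or more throughout) and 1 for its global IDR. Sequencing was planned at 20 M read pairs for each library, per the labels, and the lists give no read totals.

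Peaks were read with Python 3.11.15, numpy 2.4.6 and pandas 2.3.3 and drawn with matplotlib 3.10.9. Overlap was 1 bp or more, and distances ran between centres. Rank used the lower replicate −log10 p, with ties in order of position. Replicates are numbered as in the lists, which were not matched to the labels' numbers. The overlap code was tested on simulated data. The classes, marks and alternatives were chosen with earlier results of these data known. Named by position were the 5 highest peaks among those kept, those new and off WT IgG peaks, those lost with no deposited treated peak, and all those lost. The 5 widest gained peaks, the 3 longest runs, and the windows whose share of the list rose or fell most (5 each) were named too. Rank quartiles, the split by IgG overlap, the KO and Rescue classes, the difference in median gap and the 500 bp centres were added after values were seen. No GRCh37 genome or annotation was used here, so no gene or sequence was read from a position. H2A samples were not analysed here.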

Additional observations from a re-analysis of the deposited data

How the results depend on the processing

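Of the 13 values tried, the difference in median gap, treated minus untreated (−189.1 kb, added after values were seen), changed sign, to 9.73 kb with the treated list cut to the untreated length; under that setting gained peaks also fell short of most of the treated list and new peaks of most gained ones, as new peaks did at a global IDR of 0.01. The signed differences in width, PDS5A and H3K27Ac kept their sign under the alternatives run. Of the 10 windows named for their share of the list all 10 kept their direction at 0.5 Mb and 5 Mb, and 8 did over every deposited peak. Windows of 0.5 Mb and 5 Mb share peaks with the named windows, so that agreement was partly built in. Overlap of 50% of the shorter peak moved none beyond its interval or spread. Over every deposited RAD21 peak the count ratio was 2.50, 63.5% of treated peaks were gained, 92.4% of untreated peaks were kept, 14.4% of the top 1000 were gained, the median gap was 24.3 kb (difference −31.6 kb) and 33.2% of gained peaks lay within 20 kb of a kept one. Gained minus kept peaks then differed by −549 bp in width, −34.2 points on PDS5A and −20.1 points on H3K27Ac. At a global IDR of 0.01 the same values were 5.81, 84.95% gained, 41.9% of the top 1000, 98.5 kb (−432.5 kb), 5.09%, −336.5 bp, −13.1 and −8.55 points, with 36.9% of gained peaks new and 3.29% of lost peaks without a deposited treated peak. With the treated list cut to the untreated length, 49.6% of treated peaks were gained, 50.6% of untreated peaks kept, 45.7% of gained peaks new and 1.503% of lost peaks without a deposited treated peak. The median gap was 259.5 kb, 7.095% of gained peaks lay within 20 kb of a kept one, and the differences were −330 bp for gained, −503.5 bp for new and −5.62 points on PDS5A. This list has fewer treated peaks by construction. With peaks on deposited WT IgG peaks left out, the ratio was 5.98, 85.4% of treated peaks and 41.8% of the top 1000 were gained, 62.1% of gained peaks were new, the gap was 93.7 kb (−416.6 kb) and 6.10% lay within 20 kb. The differences were −248.5 bp for gained, −331.5 bp for new, −29.6 points on PDS5A and −4.32 points on H3K27Ac. Of lost peaks, 21.99% were then without a deposited treated peak, against 6.15% otherwise; this setting removes treated peaks on IgG peaks as well.

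Boundaries of replicate 2 gave −360 bp for gained, −481 bp for new and −189.2 kb between median gaps, and those of replicate 1 a gap of 60.8 kb; chromosome X made it 61.5 kb (−190.9 kb). Ranking by replicate 1 put 24.4% gained in the top 1000. Within 5 kb and 100 kb of a kept peak lay 2.49% and 35.0% of gained peaks. With every deposited PDS5A peak the difference was −5.36 points. The 500 bp centres gave 84.6% kept, 81.2% gained and 54.0% of gained new. The cause of the other shifts was not tested. New and lost without a deposited peak have no value over every deposited peak, which leaves none over the limit.

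No paired analysis was possible because each list joins both replicates; for the same reason no replicate was left out. Depth is unknown, and the absence of a deposited peak does not show the absence of RAD21.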
